A study of Mus musculus with 4 samples.

Results

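The proteasome is the protease complex that degrades proteins tagged with ubiquitin. A barrel of alpha and beta rings, the core particle, holds the catalytic sites, and a regulatory particle caps it, recognises ubiquitin, and unfolds substrates with a ring of ATPases. Its genes are active in nearly every cell type and are usually regulated together. Immune signals such as interferon-gamma exchange the catalytic beta subunits for inducible ones, giving the immunoproteasome, which is prominent in blood-derived cells and shapes peptides for MHC class I. Described here are the probe sets whose single gene symbol begins with Psma, Psmb, Psmc or Psmd and a number. They number 80 of 45037 non-control probe sets on the array, and belong to 40 of 18193 named genes. The pattern also takes 3 assembly chaperones of the regulatory particle (Psmd5, Psmd9 and Psmd10). It takes Psmc3ip as well, which encodes a meiotic recombination factor and no proteasome subunit.

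The set was chosen by symbol, but it was picked for study on measured signals. One Psmc4 probe set had read high with all 3 treatments while the other had not. The Psmc4 values below are therefore a description.

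The 4 cultures were primary cultures of palatal mesenchyme, the connective tissue of the developing palate, taken from wild-type embryos of outbred mice on embryonic day 14. One was untreated. Another received TGF-beta2 for 120 minutes. The remaining 2 were first exposed for 60 minutes to SB431542, an inhibitor of the TGF-beta type I receptor, or to 5Z-7-oxozeaenol (oxozeaenol below), an inhibitor of the Tak1 kinase, before the same TGF-beta2 stimulation. No culture received an inhibitor without TGF-beta2. Each culture gave 1 Affymetrix array, so there is no replicate check on any value and no p-value is given. A bulk array cannot tell fewer cells of a type from less RNA per cell.

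Signals are linear intensities on arrays scaled to a common trimmed mean of 500.0, and their medians ran from 66.3 to 72.7. Of 8 mesenchymal markers, 7 were measured above the low-signal filter described next: Col1a1, Col1a2, Col3a1, Vim, Prrx1, Twist1 and Pdgfra. The last 3 were the 3 of 8 that read lower with TGF-beta2 than untreated, Pdgfra at 3643 untreated and 1704 with TGF-beta2. Osr2, a palate regulator, read at most 30.4. All 8 macrophage markers were above the filter as well. So were 7 of 8 epithelial markers, a list with a summed signal of 1088 untreated and 10592 with oxozeaenol. Krt13 and Krtdap passed only through the oxozeaenol array, at 2023 and 951. They read at most 55.8 and 50.4 on the other arrays. Of 5 endothelial markers 1 was above the filter, and of 5 skeletal muscle markers 3 were. The part of these other cell types in the values below was not tested.

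A probe set counted as measured when its log2 signal, averaged over the 4 arrays, was no lower than the midpoint for the whole array, a signal of about 66.1. Of the 80 proteasome probe sets, 63 passed, for 38 of the 40 genes, and no signal of the remaining 17 exceeded 79.6. The 2 genes without a measured probe set were Psma8, a testis alpha subunit, at 18.9 to 34.3, and Psmb11, the beta subunit of the thymus proteasome, at 5.0 to 30.5. The brightest measured probe set stood for each gene. Differences below are on the log2(signal + 21.7) scale, which understates those of dim genes.

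Proteasome transcripts were at nearly the same level in the 4 cultures. For 30 of 38 genes (78.9%) the highest and the lowest of the 4 arrays lay within 1.2-fold of each other, against 30.4% of all 11744 measured genes. The other 8 were Psmb7, Psmb8, Psmb9, Psmb10, Psmc4, Psmd5, Psmd7 and Psmc3ip. The median gene spanned 1.13-fold over the arrays, against 1.3-fold for all genes. Bright probe sets vary less between arrays, and 33 of the 38 genes had a mean signal of at least 1000. Among these 33, 84.8% were within 1.2-fold, against 48.8% of the 4399 genes that bright.

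Larger differences were few. The 4 arrays spanned at least 1.5-fold for 4 proteasome genes (10.5%), namely Psmc4, Psmb7, Psmb9 and Psmb10, beside 24.8% of all genes. They spanned at least 2-fold for Psmc4 alone (2.63%), beside 6.7% of all genes. Among the 63 measured probe sets, 8 (12.7%) spanned at least 1.5-fold and 1 at least 2-fold, beside 26.7% and 6.74% of all measured probe sets. Of those 8 probe sets, 4 were dim, with a mean signal under 200.

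**Figure D1:**
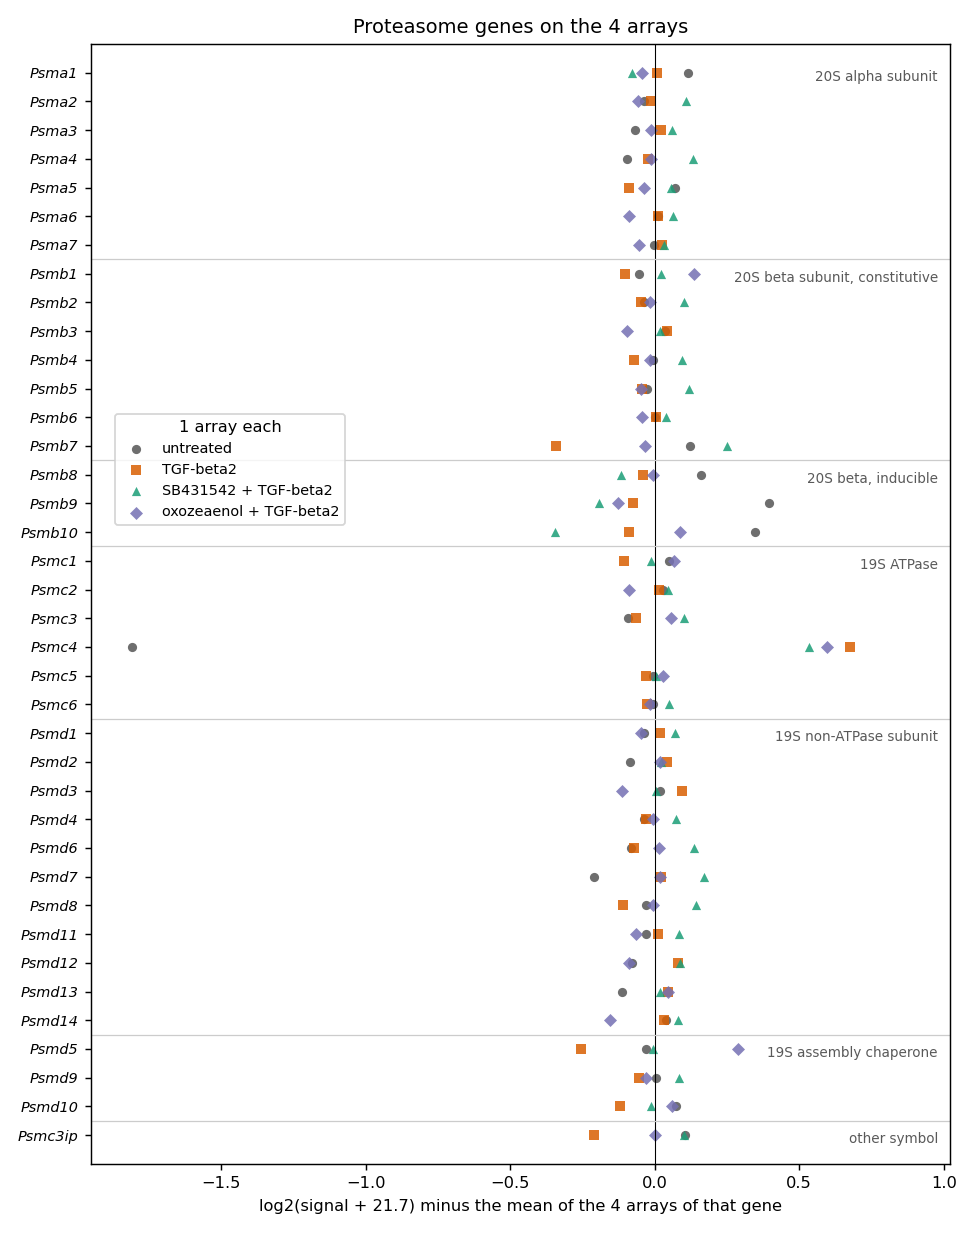
Each row is 1 of 38 proteasome genes, grouped by role, and each point is 1 array, placed at its log2(signal + 21.7) minus the mean of that gene's 4 arrays. Most points lie close to 0, while Psmc4 is far to the left on the untreated array, and Psmb8, Psmb9 and Psmb10 are to the right of the other arrays there.

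By comparison, the counts were as follows. With TGF-beta2 over untreated, Psmc4 was the 1 of 38 genes at least 2-fold apart, and also the only one at 1.5-fold, where 1.04% and 5.48% of all genes were. With SB431542 over TGF-beta2 alone, none of the 38 reached 2-fold and 1, Psmb7, reached 1.5-fold, beside 1.8% and 7.59% of all genes. With oxozeaenol over TGF-beta2 alone, the count was 0 at both sizes, beside 3.99% and 12.8% of all genes. Oxozeaenol over SB431542 likewise gave 0 at both sizes, beside 2.81% and 10.1%. These 3 comparisons do not use the untreated array. Against untreated, SB431542 had Psmc4 at least 2-fold apart (0.851% of all genes) and Psmc4, Psmb9 and Psmb10 at 1.5-fold (5.36%). Psmb9 was just at that size and was no longer counted with quantile normalization, median centring, the pseudocount at the median or the stricter filter, which removes it. Oxozeaenol against untreated had Psmc4 alone at both sizes, beside 3.0% and 11.2% of all genes. Comparisons that share an array are not independent of each other.

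The median log2 difference of the 38 genes was −0.01 with TGF-beta2 over untreated, beside −0.03 for all genes. It was 0.07 with SB431542 over TGF-beta2 alone (all genes 0.03) and 0.01 with oxozeaenol over TGF-beta2 alone (all genes 0.05). For oxozeaenol over SB431542 it was −0.1, with 27 of 38 genes below 0, while the median of all genes was 0.02, with 5504 of 11744 below 0. That proteasome median depended on the scaling, at −0.02 with quantile normalization and −0.16 with each array centred on its median. The SB431542 array held the highest of the 4 signals for 22 of the 38 genes (57.9%), beside 23.3% of all genes. Quantile normalization gives all arrays the same distribution of signals. Under it the count of genes highest with SB431542 was 15 (39.5%), beside 23.8%. With median centring it was 25 (65.8%), beside 29.1%.

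**Figure D2:**
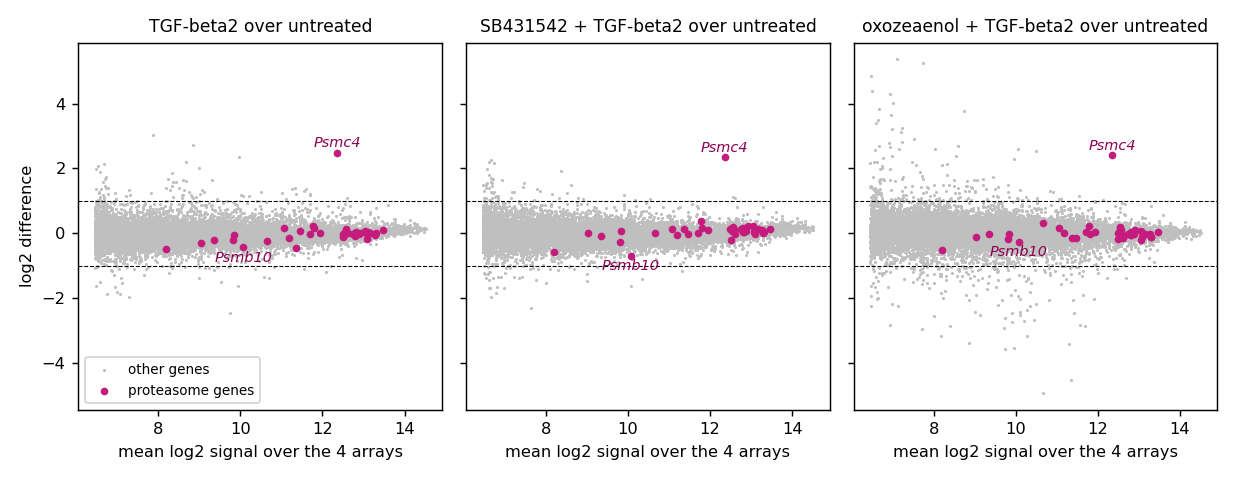
Each point is 1 measured gene, with its mean log2 signal over the 4 arrays on the horizontal axis and its log2 difference from the untreated array on the vertical axis, for the 3 treated arrays in turn; dashed lines mark 2-fold. Most proteasome genes, in colour, lie near 0 at the bright end of each panel, while Psmc4 lies at 2.48, 2.34 and 2.4, Psmb10 at −0.43, −0.69 and −0.26, and the dimmer Psmb9 at −0.47, −0.59 and −0.52.

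The alpha subunits form the outer rings of the core particle and gate its entrance. All 7 measured alpha genes spanned less than 1.2-fold over the arrays, from 1.06-fold to 1.17-fold. Psma3 read 10776 untreated, 11455 with TGF-beta2, 11759 with SB431542 and 11199 with oxozeaenol. Psma4, which had the widest span of the 7, read 7905 (untreated), 8320.2 (TGF-beta2), 9266 (SB431542) and 8384 (oxozeaenol). Its SB431542 signal was the high one and the other 3 lay close together. Psma1 was the reverse, highest untreated at 6262 and 5471 to 5803 on the treated arrays. A dim second probe set of Psma1 did not follow it and spanned 1.68-fold. It read 154.6 untreated, 128.2 with TGF-beta2, 165.9 with SB431542 and 89.8 with oxozeaenol.

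The constitutive beta subunits form the inner rings, and Psmb5, Psmb6 and Psmb7 carry the catalytic threonines. Of the 7 genes, 6 spanned less than 1.2-fold. Psmb6 read 7126 untreated, 7139 with TGF-beta2, 7317 with SB431542 and 6911 with oxozeaenol, a span of 1.06-fold. Psmb7, the trypsin-like subunit, was the exception, with 2844 untreated, 2058 with TGF-beta2, 3111 with SB431542 and 2554 with oxozeaenol. The array with TGF-beta2 alone was the low one, and SB431542 was 1.51-fold above it (log2 0.59). Psmb7 has 1 probe set, so no second reading on the same arrays was at hand. Psmb1, a beta subunit with no catalytic site, read 5690.4, 5503, 6004 and 6489 on its brightest probe set, in the order untreated, TGF-beta2, SB431542 and oxozeaenol.

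The inducible beta subunits Psmb8, Psmb9 and Psmb10 replace Psmb5, Psmb6 and Psmb7 in the immunoproteasome. All 3 were measured, and each read highest on the untreated array, as did 18.4% of the 38 proteasome genes and 22.2% of all genes. Psmb9 read 364.5 untreated, 257 with TGF-beta2, 235 with SB431542 and 247 with oxozeaenol, so the treated arrays lay close together below the untreated one. Its log2 differences from untreated were −0.47, −0.59 and −0.52 in that order. Psmb10 read 1349 untreated, 993.5 with TGF-beta2, 827 with SB431542 and 1123 with oxozeaenol, or −0.43, −0.69 and −0.26 from untreated. Psmb8 had the smallest differences, −0.2, −0.28 and −0.17, with signals of 986 untreated and 809 to 876 on the treated arrays. A second Psmb8 probe set did not count as measured, with 68.0 untreated and 3.4 to 37.6 on the treated arrays. None of these differences reached 2-fold. All 9 kept their sign with quantile normalization and with median centring. They share the 1 untreated array, so they are not 9 separate results. The medians of all genes against untreated were −0.03, −0.01 and 0.03, which left centring little room to change a sign.

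Their catalytic counterparts did not read lower on every treated array. Psmb5 stood at 6738 untreated, 6645 with TGF-beta2, 7446 with SB431542 and 6629 with oxozeaenol. Psmb7 was below untreated with TGF-beta2 alone (−0.46) and with oxozeaenol (−0.15), and 0.13 above it with SB431542, the array on which Psmb10 was lowest. Signals at least 1.1-fold below untreated on all treated arrays were read for 3 of the 38 proteasome genes (7.89%), which were the inducible ones, beside 7.02% of all genes. The share is near that of all genes. The 1.1-fold size was set after the values had been seen. By any amount, Psma1, Psma5, Psmd10 and Psmc3ip were also below untreated on all treated arrays.

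Macrophage markers, from a list of 8 genes, read lower as well. Of the 8, 7 were below untreated on all treated arrays, Lyz2 being the other one. That count sets no size and was not made over all genes. Among the 38 proteasome genes it was 7 (18.4%). With TGF-beta2 the differences of the 7 markers ran from −0.29 (Cd14) to −0.01 (Csf1r). The summed signal of the 8 was 43231 untreated, 40784 with TGF-beta2, 41899 with SB431542 and 36900.0 with oxozeaenol. None of the 8 was at 0, and the dimmest, Itgam, read 316 to 390.2. The lowest sum was with oxozeaenol, whereas Psmb8, Psmb9 and Psmb10 were each lowest with SB431542, as were 22.7% of all genes. The part of macrophage RNA in the levels of the inducible subunits was not tested.

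**Figure D3:**
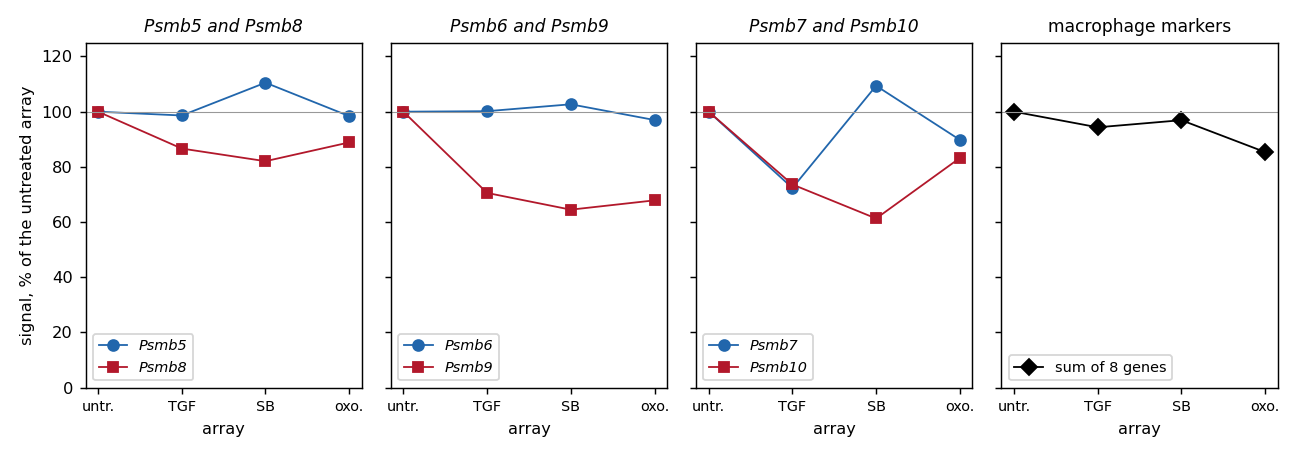
Signals as a percentage of the untreated array for each constitutive catalytic subunit (circles) and its inducible counterpart (squares), and, in the right panel, for the summed signal of 8 macrophage markers; each point is 1 array. The inducible genes lie below 100 on all treated arrays, Psmb5 and Psmb6 stay near 100, and Psmb7 is low with TGF-beta2 alone.

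MHC class I presentation genes, which load the peptides that the immunoproteasome cuts, were compared as a list of 8, of which 7 were measured. Their median log2 difference from untreated was −0.2 with TGF-beta2, −0.23 with SB431542 and 0.03 with oxozeaenol. None was 2-fold apart in any comparison. At 1.5-fold, 2 were lower with SB431542 than untreated, Tapbp (−0.66) and, just past that size, Nlrc5 (−0.6), beside 282 of all 11744 genes. Nlrc5 was also that much higher with oxozeaenol than with SB431542 (0.71), as were 669 of all genes. Nlrc5, an activator of MHC class I genes, was dim, at 139.4 untreated, 114.4 with TGF-beta2 and 84.5 with SB431542, and highest with oxozeaenol. Tapbp, the tapasin gene that joins the peptide transporter to class I molecules, read 2859.5 untreated, 2293 with TGF-beta2, 1803 with SB431542 and 1990.2 with oxozeaenol. As for Psmb10, its highest signal was untreated and its lowest with SB431542. Tap1, a peptide transporter subunit, was below untreated with TGF-beta2 (−0.2) and above it with SB431542 (0.17) and oxozeaenol (0.15). Irf1, an interferon-responsive transcription factor, read 874, 869, 1031 and 1125 on the arrays in the order used above.

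The bases before the annotated start sites of 4 of these catalytic genes are printed next, since the inducible genes are known for interferon-responsive promoters. They are from RefSeq on the GRCm38.p6 build, printed 5′ to 3′ on the gene's strand and ending just before the start site. Capitals mark a match to 1 of 2 motifs, searched on both strands: the core of the interferon-stimulated response element (GAAA and GAAA with 2 bases of any kind between them) and the antioxidant response element bound by Nrf1 and Nrf2, regulators of proteasome genes (TGACNNNGC). Psmb5 (chr14:54617996-54618245, minus strand) is the 1 constitutive gene shown, so the set does not compare the classes. Psmb8 (chr17:34197945-34198194, plus strand), Psmb9 (chr17:34187331-34187555, minus strand) and Psmb10 (chr8:105938393-105938642, minus strand) are shown for the inducible ones.
Psmb5: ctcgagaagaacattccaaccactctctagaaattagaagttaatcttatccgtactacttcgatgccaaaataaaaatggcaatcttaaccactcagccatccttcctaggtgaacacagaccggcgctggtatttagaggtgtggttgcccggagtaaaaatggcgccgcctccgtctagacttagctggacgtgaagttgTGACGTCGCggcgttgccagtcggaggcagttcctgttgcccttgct
Psmb8: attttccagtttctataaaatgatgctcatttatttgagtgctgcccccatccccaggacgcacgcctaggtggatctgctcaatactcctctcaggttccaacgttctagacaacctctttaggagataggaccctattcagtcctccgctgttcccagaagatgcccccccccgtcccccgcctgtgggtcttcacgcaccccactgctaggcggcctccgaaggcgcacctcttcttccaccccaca
Psmb9: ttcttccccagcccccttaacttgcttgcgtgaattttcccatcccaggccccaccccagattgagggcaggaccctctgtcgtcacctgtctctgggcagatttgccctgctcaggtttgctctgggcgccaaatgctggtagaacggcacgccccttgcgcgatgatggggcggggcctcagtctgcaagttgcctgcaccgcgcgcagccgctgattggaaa
Psmb10: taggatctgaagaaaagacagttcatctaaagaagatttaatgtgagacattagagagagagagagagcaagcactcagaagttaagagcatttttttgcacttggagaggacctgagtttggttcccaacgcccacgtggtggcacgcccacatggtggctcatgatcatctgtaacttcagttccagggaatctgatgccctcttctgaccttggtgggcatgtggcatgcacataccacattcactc

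The Psmb5 sequence held the antioxidant element 47 bases before the start site. Neither motif was found in the Psmb8, Psmb9 and Psmb10 sequences. The Psmb9 sequence is 225 bases long because the divergent gene Tap1 begins there, so both genes share it. Both read below untreated with TGF-beta2, Psmb9 at −0.47 and Tap1 at −0.2. On the SB431542 and oxozeaenol arrays Psmb9 read below untreated and Tap1, a dim gene at 174.5 to 232.3, slightly above. Promoter windows of 250 bases were at hand for 33 of the proteasome genes, 35 windows in all. The antioxidant element occurred in 5 of the 35 (14.3%), those of Psmb5, Psmb6, Psmc6, Psmd12 and Psmd9, beside 10.2% of 32851 mouse windows. The response element core occurred in 3 (8.57%, Psmb3, Psmd4 and Psmd9), beside 2.98%. A match describes letters only, and no binding was measured.

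The ATPases Psmc1 to Psmc6 form the unfolding ring of the regulatory particle. Psmc4 was measured by 2 probe sets that disagreed on the untreated array. The probe set whose name ends in _a_at read 1477 untreated, 8353 with TGF-beta2, 7567 with SB431542 and 7909 with oxozeaenol. The 3 treated arrays lay within 1.2-fold of each other and the untreated array stood apart below them. The one that ends in _at read 3240.4, 3376, 3623 and 3449 in the same order, a span of 1.12-fold. Its log2 differences from untreated were 0.06, 0.16 and 0.09, where those of the other probe set were 2.48, 2.34 and 2.4. Between the treated arrays the readings were alike, with differences of −0.14 and 0.1 for SB431542 over TGF-beta2 alone, and of −0.08 and 0.03 for oxozeaenol. The mean of both probe sets would put Psmc4 at 1.27 above untreated with TGF-beta2.

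**Figure D4:**
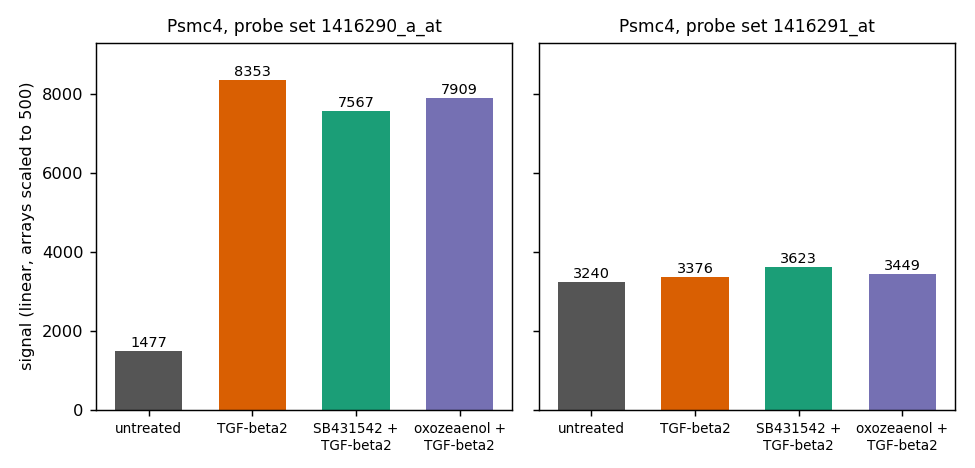
Linear signals of the 2 Psmc4 probe sets on the 4 arrays, 1 array per bar, with axes starting at 0. The untreated array is far below the others in the left panel (name ending in _a_at), at 1477, and level with them in the right one (_at), at 3240.4.

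The other 5 ATPase genes did not share that step. Psmc5 had the narrowest span of all proteasome genes, 1.04-fold, with 3305 untreated, 3244 with TGF-beta2, 3329 with SB431542 and 3386 with oxozeaenol. Psmc3, at 5603, 5712, 6418 and 6208 in the same order, was highest with SB431542, and Psmc2 and Psmc6 spanned 1.1-fold and 1.06-fold. The median log2 difference of the 6 ATPase genes was −0.02 with TGF-beta2, 0.04 with SB431542 and 0.03 with oxozeaenol against untreated.

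Signals at least 2-fold above untreated with every treatment were found for Psmc4 among the 38 genes, as the choice of the set fixed, and for 0.128% of all genes (15 genes). Over probe sets it was 34, or 0.169% of those measured. A signal at least 2-fold below all other arrays occurred in 34 probe sets on the untreated array, 33 on the TGF-beta2 array, 31 on the SB431542 array and 129 on the oxozeaenol array. At 4-fold, a size that the Psmc4 probe set also passed, it occurred in 3 probe sets on the untreated array, in 0 on the TGF-beta2 array, in 0 on the SB431542 array and in 30 on the oxozeaenol array. Of the 34 probe sets, 21 were under the filter signal on the untreated array, and Psmc4 was 1 of 4 with an untreated signal of at least 1000. Probe sets whose name ends in _x_at, which can bind transcripts of other genes, made up 12 of the 34 (35.3%) and 6.78% of all measured probe sets. The Psmc4 probe set ends in _a_at, the ending for probes shared by transcript variants of a gene.

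Of the 34, 22 belonged to genes with at least 2 measured probe sets, and the other 53 probe sets of these genes had medians of 0.01 with TGF-beta2, 0.00 with SB431542 and 0.07 with oxozeaenol against untreated. Not 1 of the 53 was at least 1.5-fold above untreated on all treated arrays. Ranked by the smallest of a probe set's 3 differences from untreated, the 5 leading genes were Gja1, Psmc4, Mff, Fmod and Septin11. For Gja1, the gap junction protein connexin 43, 1 probe set read 1049 untreated and 7773 to 8554 on the treated arrays. Its brightest one read 10995 untreated and 10201 to 10983 on the others. Of its 4 other probe sets, a dim one was 0.66 above untreated with TGF-beta2, 0.51 with SB431542 and 0.14 with oxozeaenol, and another was −0.44, 0.56 and 0.33 from it. For Fmod, the matrix proteoglycan fibromodulin, 1 probe set read 477 untreated and 1617 to 5232 treated, while the 5 others were at most 0.39 above untreated with TGF-beta2. Mff and Septin11 each had 1 probe set like this and 2 that were within 0.15 of untreated with TGF-beta2.

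Disagreement between probe sets was otherwise modest. Of the 38 proteasome genes, 18 had at least 2 measured probe sets. The range of log2 differences over the probe sets of a gene had a median of 0.23 with TGF-beta2 over untreated, beside 0.28 for the 5121 such genes. For Psmc4 it was 2.42, rank 3 of the 5121. For oxozeaenol over TGF-beta2 alone the Psmc4 range was 0.11 and it ranked 4196, where the untreated array plays no part. Psmb1 had the next largest range against untreated with SB431542, 1.72. Its bright probe set was 0.08 above untreated, while 2 dim ones differed by −0.96 (from 231 to 108) and 0.76 (from 59.7 to 116). Psmd9 read 897 untreated and 861 with TGF-beta2 on its brighter probe set, and 64.9 and 142 on the dim one, a range of 0.98. Among bright pairs, the 2 Psmb4 probe sets differed in sign with SB431542 over untreated, at 0.1 and −0.28, and so did those of Psmd6, at 0.22 and −0.2. Psmd11, a lid subunit with 5 measured probe sets, spanned at most 1.18-fold over the arrays on the 4 bright ones and 1.4-fold on the dim one.

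**Figure D5:**
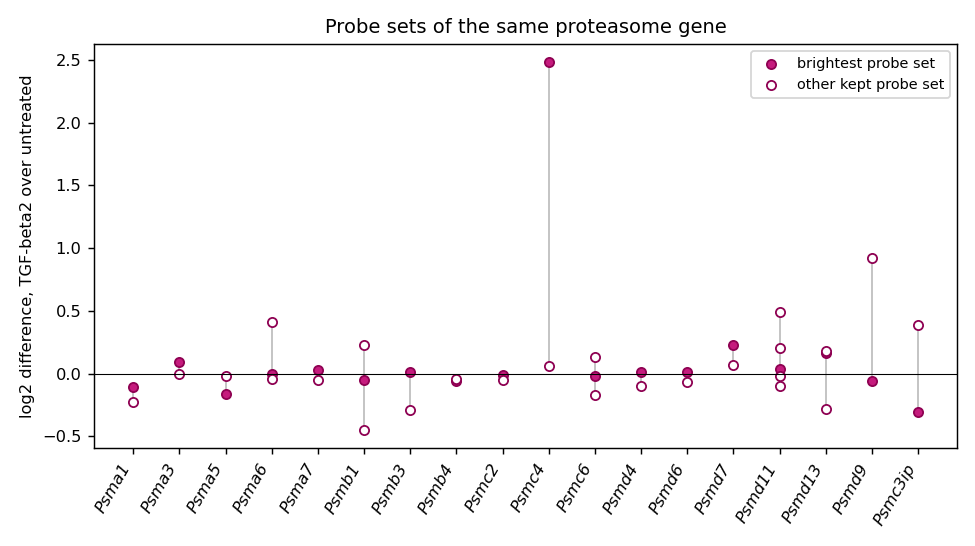
Log2 differences of TGF-beta2 over untreated for the measured probe sets of the 18 proteasome genes with at least 2; filled points are the brightest probe set of a gene, open points the others, and lines join those of a gene. The 2 Psmc4 points lie at 2.48 and 0.06, and the next widest gap is that of Psmd9.

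The non-ATPase subunits of the regulatory particle form its base and lid, and include the ubiquitin receptor Psmd4 and the deubiquitinase Psmd14. Of 11 genes, 10 spanned less than 1.2-fold, and none 1.5-fold. Psmd7, a lid subunit paired with Psmd14, was the exception, with 3016 untreated, 3546 with TGF-beta2, 3929 with SB431542 and 3531 with oxozeaenol. Its untreated signal was the lowest, at log2 differences of 0.23, 0.38 and 0.23. A dim second probe set of Psmd7, at 129.8 to 187.7, did not follow it with SB431542, at −0.15. Psmd14 read 8761 untreated, 8730 with TGF-beta2, 9026 with SB431542 and 7664 with oxozeaenol, which was the low array. Psmd4 spanned 1.08-fold on its brightest probe set. Its next one read 2329.8 untreated, 2174 with TGF-beta2, 2190.4 with SB431542 and 2916 with oxozeaenol. In this group 10 of 11 genes read lower with oxozeaenol than with SB431542, at a median of −0.12, where 5504 of all 11744 genes did. The median was −0.06 with quantile normalization and −0.19 with median centring. The direction was not particular to this group. It held for 6 of 7 alpha genes (median −0.09) and 6 of 7 constitutive beta genes (median −0.12).

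The assembly chaperones Psmd5, Psmd9 and Psmd10 help build the ATPase ring and leave before the particle is complete. Psmd5 read 1563 untreated, 1335 with TGF-beta2, 1590.1 with SB431542 and 1952 with oxozeaenol. The oxozeaenol array was the high one, 0.54 above TGF-beta2 alone and 0.32 above untreated, under the 1.5-fold size. Psmd10, also known as gankyrin, spanned 1.14-fold. Psmc3ip, outside the complex, read 542 untreated, 432 with TGF-beta2, 541 with SB431542 and 503 with oxozeaenol on its brighter probe set. Its second probe set differed in direction with TGF-beta2 (0.39 against −0.31).

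Other genes of the pathway were taken as lists. None of the lists that follow had a gene at least 1.5-fold apart in any comparison. Of 5 activators and inhibitors, 4 were measured, and their median was −0.07 with TGF-beta2 over untreated. Psme1, a subunit of the activator that interferon induces, read 2040.2, 1936, 1941 and 1898.5 in the order untreated, TGF-beta2, SB431542 and oxozeaenol. All 5 chaperones of core particle assembly were measured, with medians of −0.05 (TGF-beta2), 0.1 (SB431542) and −0.06 (oxozeaenol) against untreated. Psmg1 was the lowest of them with TGF-beta2, at −0.45, from 1559 to 1135. Psmb7 was also lowest with TGF-beta2 alone. That array held the lowest signal for 13 of the 38 proteasome genes (34.2%), beside 30.7% of all genes. Pomp, the maturation factor of the core particle, read 7733 untreated and 6614 with oxozeaenol.

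Of 9 ubiquitin receptors, deubiquitinases and shuttles that dock on the regulatory particle, 7 were measured, with medians between −0.1 and 0.00 against untreated. Ubqln4, a shuttle protein, had the largest differences, −0.36 with SB431542 and −0.39 with oxozeaenol. Nfe2l1, which encodes the transcription factor Nrf1 that restores proteasome synthesis when the complex is inhibited, read 3664 untreated, 3958 with TGF-beta2, 2738 with SB431542 and 3663 with oxozeaenol. The SB431542 array was the low one, at −0.53 from TGF-beta2 alone. Ngly1, the enzyme that removes sugars from Nrf1, read 0.36 and 0.52 above untreated with SB431542 and oxozeaenol. None of 5 ubiquitin and E1 genes had a measured probe set with a single symbol.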

How the data were processed

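Deposited values are microarray intensities on a linear scale, 1 per probe set and array, made by the authors with GCOS, the Affymetrix array software, per the submitters' processing notes. For its version, its algorithm and its settings nothing is stated in the sources used here. For each array 500 ng of RNA was amplified and labelled, per the labels' protocols. The mean without the lowest and highest 2% of probe sets was 500.0 on every array.

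Of 45101 probe sets, 64 controls were left out. Gene names came from the platform annotation, which gave 1 symbol for 34945 probe sets, several for 932 and none for 9160, and only the first kind was used. Intensities became log2(value + 21.7), the pseudocount being the 25th percentile of all values. The filter kept 20064 probe sets of 11744 genes, and the brightest stood for its gene. With 1 array per group there was no spread to test against and no p-value was computed; the number of arrays limits the precision. Genes were counted by size, at 2-fold and 1.5-fold, over 6 comparisons.

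The members, gene lists and marker lists were chosen with earlier results of these data known. Every member was described by role, with all 4 signals for Psmc4, for members at least 1.5-fold apart and for examples of each role. For the other lists up to 4 genes were named. The 1.2-fold, 1.1-fold and 4-fold sizes, the signal of 1000, the motifs and the further examples were set after the values had been seen.

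Marker levels use the brightest probe set of a gene with no filter. Motifs were searched in RefSeq promoter windows of GRCm38.p6. One motif is not reported here. Counting was tested on simulated data with planted changes. The alternatives were other pseudocounts (10th percentile and median), no filter or the 75th percentile, quantile normalization, median centring, and the mean of a gene's probe sets. Python 3.11.15, numpy 2.4.6, pandas 2.3.3 and matplotlib 3.10.9 were used.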

Additional observations from a re-analysis of the deposited data

How the results depend on the processing

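No paired analysis was possible because each group holds 1 array, and for the same reason no replicate could be left out. Counts moved with the settings mainly through Psmc4 and dim probe sets. Leaving out the Psmc4 probe set that is low on the untreated array, an alternative chosen after seeing the data, brought every count of genes at least 2-fold or 1.5-fold above untreated, and of probe sets at least 2-fold above it, from 1 to 0. With no filter, the genes at least 1.5-fold above untreated were 2 on each treated array. With the pseudocount at the 10th percentile, the probe sets 2-fold or more above untreated on the TGF-beta2 array were 2. Probe sets at least 2-fold lower with SB431542 than untreated became 1 at that pseudocount, with no filter and with quantile normalization. With no filter, 1 was that far lower on the SB431542 array than on the TGF-beta2 array, and 2 were higher with oxozeaenol than with SB431542.

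Psmb7 was no longer 1.5-fold apart with the pseudocount at the median, where the count became 0. The 2 genes at least 1.5-fold below untreated with SB431542 became 1 with that pseudocount, the stricter filter, quantile normalization and median centring. With quantile normalization 1 gene was that far below untreated with oxozeaenol. The inducible beta genes had a median of −0.32 with TGF-beta2 over untreated both with no filter, which adds Psmb11, and with the stricter filter, which drops Psmb9. Their median was −0.43 with SB431542 over untreated with no filter, and 0.27 for oxozeaenol over SB431542 with the stricter filter. The chaperone median of oxozeaenol over untreated was 0.13 with the mean of probe sets.

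The median spread between probe sets of a gene depended on dim probe sets. With the stricter filter it was 0.09 (TGF-beta2 over untreated), 0.11 (SB431542 over TGF-beta2), 0.14 (oxozeaenol over TGF-beta2), 0.1 (SB431542 over untreated) and 0.16 (oxozeaenol over untreated). With no filter the first was 0.4, the second 0.4 and the fourth 0.38. Of 1014 values recomputed under 8 settings, 966 kept their count within 1.5 times or their log2 value within 0.1, and 48 moved. A reversal of sign was looked for only in log2 values at least 1.5-fold in the main setting, and 0 were found. Smaller values could change sign and still count as kept. The alpha subunit median with TGF-beta2 over untreated did so, at 0.02 and, with quantile normalization, −0.03.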
